A study of Mus musculus with 16 samples.

Results

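The 44 mouse genes that encode collagen chains were described across bulk RNA sequencing libraries of sorted pancreatic cancer cells. They were chosen by name, as protein-coding genes whose symbol is Col, a number, the letter a and a number, and they were 44 of the 24467 genes counted. By protein structure 11 belonged to the fibrillar class, 8 to the basement membrane class and 25 to neither. KPC 7TCF-eGFP/Porcn-DMA cells, a mouse pancreatic ductal adenocarcinoma (PDAC) line with a green reporter driven by TCF sites, were grown in the pancreas of host mice, and cancer cells were sorted from the dissociated tumours by their reporters. There were 4 groups with 4 libraries each. DN cells had neither reporter, GFP cells had the green one, mScarlet cells had the red one and DP cells had both. All 4 groups carried the same 7TCF-eGFP and Porcn-DMA constructs and differed only in the gate. The design describes WNT-responsive, WNT-secreting, doubly positive and doubly negative populations. GFP is the WNT-responsive gate by its reporter, and no label states in words that mScarlet is the WNT-secreting one. The sources used here do not give the make-up of Porcn-DMA, the strain and age of the hosts or the number of clones in the line. Host stroma remains in such tumours, so a sort can hold host cells.

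Collagens are proteins of the extracellular matrix in which 3 chains wind into a triple helix. Fibrillar collagens, above all types I, III and V, assemble into the fibres that stiffen connective tissue and the scar-like stroma of pancreatic cancer, and in that stroma they are made chiefly by fibroblasts. Type IV collagen forms the sheet-like network of basement membranes, to which epithelial cells attach, and types XV and XVIII lie along that network. The remaining chains form beaded filaments and anchoring fibrils, decorate the surface of fibrils or span the cell membrane.

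Promoter sequences of 6 of these genes are shown. Col1a2, Col3a1, Col5a1 and Col5a3 were chosen as fibrillar genes whose transcripts moved together. Col6a1 was chosen as an abundant chain with a narrower range, and Col17a1 because it was found almost only in DN. The sequences are bases before the gene's start in RefSeq (GRCm38.p6), written 5′ to 3′ on the gene's strand. Bases within an annotated exon or gene span were left out. Capitals mark matches on either strand to TATAAA (a core promoter element), to CCAAT, to GGGCGG (a GC box) and to CTTTGA (core of the site of TCF/LEF, the DNA-binding partners of beta-catenin). Col1a2 is on the plus strand at chr6:4505370-4505492, Col3a1 on the plus strand at chr1:45311388-45311537 and Col5a1 on the plus strand at chr2:27886231-27886380. Col5a3 is on the minus strand at chr9:20815118-20815267, Col6a1 on the minus strand at chr10:76726169-76726294 and Col17a1 on the minus strand at chr19:47692095-47692244.
Col1a2: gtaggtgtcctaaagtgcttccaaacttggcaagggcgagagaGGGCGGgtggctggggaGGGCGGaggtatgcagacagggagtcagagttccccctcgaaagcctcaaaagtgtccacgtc
Col3a1: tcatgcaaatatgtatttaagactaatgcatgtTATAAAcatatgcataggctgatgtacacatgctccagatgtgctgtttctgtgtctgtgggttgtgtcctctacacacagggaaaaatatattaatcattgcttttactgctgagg
Col5a1: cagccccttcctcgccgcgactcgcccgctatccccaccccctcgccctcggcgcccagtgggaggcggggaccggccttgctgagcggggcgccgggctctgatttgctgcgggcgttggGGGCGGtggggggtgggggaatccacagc
Col5a3: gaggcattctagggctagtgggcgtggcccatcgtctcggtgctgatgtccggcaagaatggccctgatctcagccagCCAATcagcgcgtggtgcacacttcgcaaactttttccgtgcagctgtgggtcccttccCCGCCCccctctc
Col6a1: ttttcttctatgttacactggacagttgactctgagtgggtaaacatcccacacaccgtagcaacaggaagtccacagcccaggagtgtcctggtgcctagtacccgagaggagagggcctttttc
Col17a1: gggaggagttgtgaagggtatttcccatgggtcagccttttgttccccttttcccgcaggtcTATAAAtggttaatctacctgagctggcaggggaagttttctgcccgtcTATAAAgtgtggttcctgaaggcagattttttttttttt
In the stretches shown, Col3a1 has a TATAAA match and Col17a1 has a pair of them, Col1a2 has a pair of GC boxes and Col5a1 has 1, Col5a3 has CCAAT and a GC box read on the other strand, and Col6a1 has none. Elsewhere in the 250 bases, outside the stretches shown, Col6a1 and Col5a3 each have a CTTTGA. Col5a1 and Col5a3 each have a further GC box there, read on the other strand. Col1a2 has a CCAAT there, and Col17a1 has one read on the other strand. In the whole 250 bases before the start, 38 promoter entries were found for 35 of the 44 genes. TATAAA was in 5 of the 38 entries and in 12.4% of 32851 mouse promoters, CCAAT in 13 and in 33.8%, GGGCGG in 22 and in 32.7%, and CTTTGA in 9 and in 13.8%. A match is a run of letters and not evidence of binding.

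Between 80647185 and 104273669 reads were counted per library, and collagen genes took 0.178% to 1.21% of them. Levels are in CPM, the read count scaled to library size. Keratins 8, 18, 19 and 7, which mark ductal epithelium, were at 1037 CPM or more in every library, and E-cadherin (Cdh1) was at 308.3 to 1446 CPM. Epcam, another epithelial marker, was at no more than 0.474 CPM in 15 libraries and at 29.0 CPM in GFP library 4. GFP 4 stood apart in further ways. Its 7 acinar markers (digestive enzymes of the normal pancreas) summed to 16270 CPM against 38.5 to 1524 CPM in the others, and its 16 fibroblast markers that are not collagens to 6490 CPM against 282.2 to 2227 CPM. Values without it are given beside the main results that it moved. Macrophage markers were highest in GFP 1, at 22250 CPM, against 128.8 to 5271 CPM in the others.

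Libraries of every gate held abundant transcripts of a few basement membrane and type VI chains, while fibrillar transcripts varied by orders of magnitude. Which cells in the sorts made them was not tested. The median over the 16 libraries was 10 CPM or more for 11 members, 1 to 10 CPM for 6 and under 1 CPM for 27. Of the 44, 36 passed edgeR's expression filter and were tested, and 8 were not: Col2a1, Col24a1, Col9a1, Col9a3, Col10a1, Col13a1, Col23a1 and Col26a1. The group with the highest mean was GFP for 28 members, DN for 7, DP for 5 and mScarlet for 4. The single highest library was GFP 4 for 24 members, and without it the highest mean was in GFP for 21, DN for 13, DP for 6 and mScarlet for 4. Per kilobase of transcript, which allows levels of different genes to be compared, Col18a1 had the highest median, at 238.2 CPM per kb, before Col6a1 at 83.6, Col6a2 at 61.8, Col4a1 at 31.7, Col4a2 at 13.0, Col3a1 at 12.4 and Col1a1 at 9.49.

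**Figure D1:**
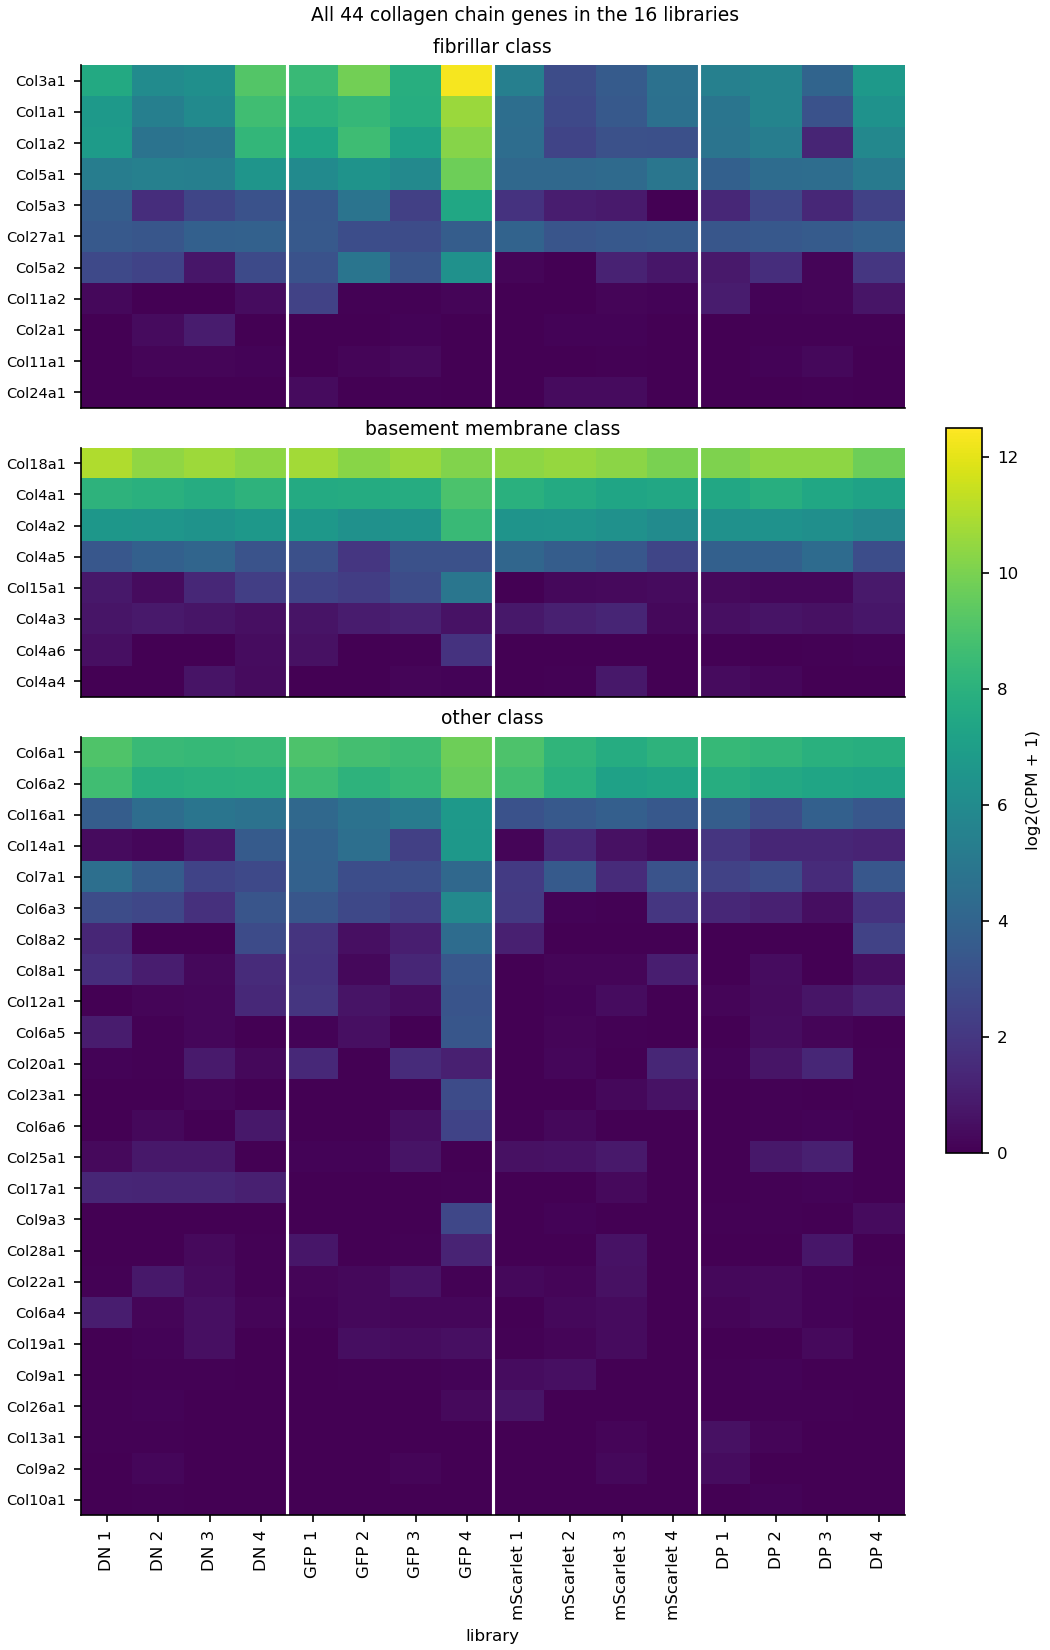
Heat map of log2(CPM + 1) for the 44 collagen chain genes (rows, by class and falling mean) in the 16 libraries (columns, by group). Col18a1, Col4a1, Col4a2, Col6a1 and Col6a2 are bright in every column, whereas Col3a1, Col1a1 and Col1a2 are brightest in GFP 4 and dark in the mScarlet columns.

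Fibrillar transcripts were lowest in cells that carried mScarlet. Col1a1 (Entrez 12842, chromosome 11 from 94936224 to 94953042 in GRCm38) encodes the alpha-1 chain of type I collagen. It was at 105.2, 41.6, 63.1 and 408.1 CPM in DN libraries 1 to 4, at 264.7, 323.4, 221.2 and 1567 CPM in GFP, at 21.9, 5.67, 10.4 and 23.4 CPM in mScarlet and at 27.6, 49.4, 7.93 and 82.0 CPM in DP. Every mScarlet library lay below every DN and every GFP library, and DP overlapped both DN and mScarlet. The mean was 594.1 ± 650.1 CPM for GFP, 154.5 ± 171.1 for DN, 41.7 ± 31.7 for DP and 15.3 ± 8.68 for mScarlet (SD, n = 4), with 269.8 ± 51.3 CPM for GFP without GFP 4 (SD, n = 3). In bulk libraries fewer cells of a type and less RNA per cell cannot be told apart, here and below for every gene. Col1a2 (Entrez 12843, chromosome 6 from 4505618 to 4541543), the partner chain, was at 116.6, 25.8, 29.1 and 304.7 CPM in DN and at 159.6, 393.6, 143.5 and 1199 CPM in GFP. It was at 21.4, 4.86, 7.60 and 7.23 CPM in mScarlet and at 27.2, 38.0, 1.46 and 56.1 CPM in DP. As for Col1a1, the mScarlet libraries did not overlap DN or GFP.

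Col3a1 (Entrez 12825, chromosome 1 from 45311538 to 45349706), the only chain of type III collagen, spanned a wide range. It was at 191.4, 63.4, 74.5 and 563.3 CPM in DN, at 349.8, 907.7, 225.3 and 5156 CPM in GFP, at 41.8, 6.40, 10.8 and 24.3 CPM in mScarlet and at 42.8, 49.3, 15.4 and 106.7 CPM in DP. The highest library was 806 times the lowest, and 142 times without GFP 4. Again no mScarlet library reached the lowest DN or GFP library.

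The type V chains start the assembly of type I fibrils and set their width. Col5a1 (Entrez 12831, chromosome 2 from 27886381 to 28039510) was at 38.5, 42.9, 41.8 and 90.4 CPM in DN, at 62.3, 83.6, 57.4 and 847 CPM in GFP, at 17.8, 17.4, 19.0 and 28.7 CPM in mScarlet and at 13.0, 20.2, 21.02 and 34.9 CPM in DP. It was the only called member in which all 8 libraries with mScarlet lay below all 8 without it. Col5a2 was at 5.72, 4.76, 0.697 and 6.11 CPM in DN, at 7.94, 28.5, 8.71 and 80.1 CPM in GFP and at 0.834, 2.12, 0.109 and 2.89 CPM in DP. In mScarlet it was at 0.119, 0, 1.28 and 0.703 CPM, and the library with no count allows up to 0.0388 CPM (3 counts, counting error only). Col5a3 was at 11.7, 2.11, 5.16 and 7.85 CPM in DN, at 9.78, 26.7, 4.22 and 175.3 CPM in GFP, at 2.60, 0.971, 0.854 and 0.011 CPM in mScarlet and at 1.59, 5.34, 1.59 and 4.32 CPM in DP. All 3 type V genes had their highest group mean in GFP and their lowest in mScarlet. Col27a1, a fibrillar chain with a shortened helix, ran only from 6.52 to 15.0 CPM and was highest in mScarlet 1. The remaining fibrillar genes, Col2a1, Col11a1, Col11a2 and Col24a1, are typical of cartilage or little expressed in adults and stayed under 1 CPM except Col11a2 at 4.57 CPM in GFP 1.

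**Figure D2:**
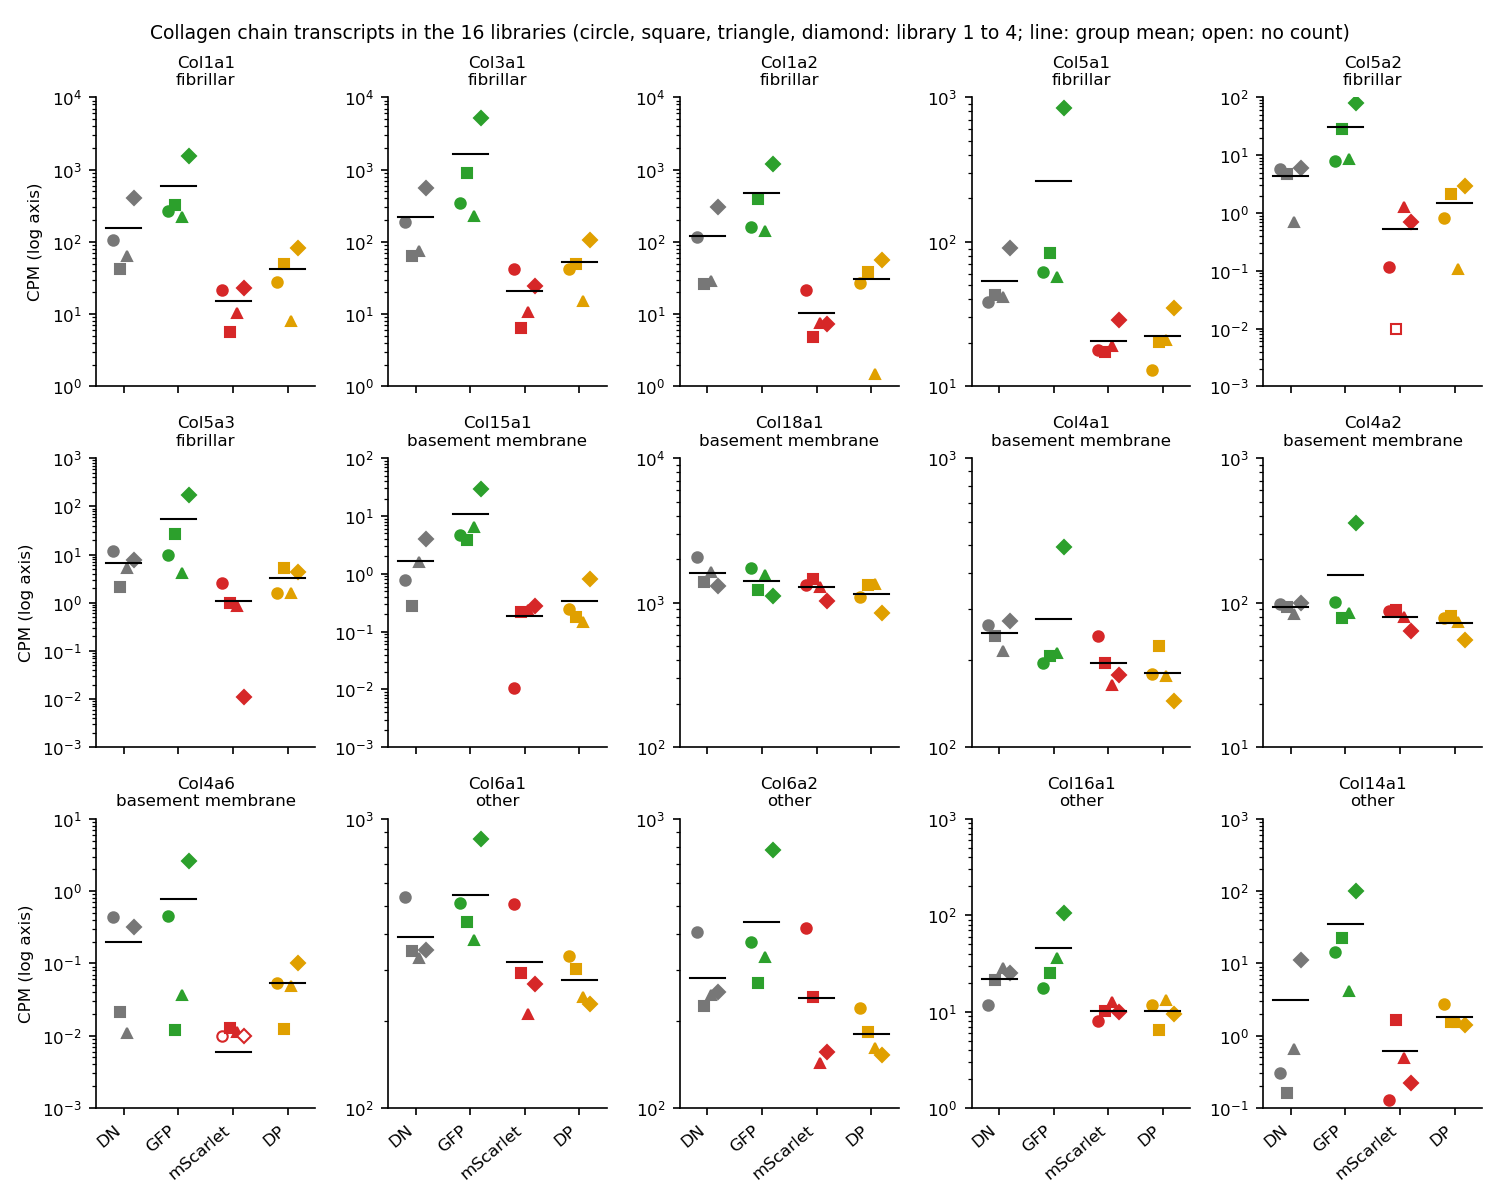
CPM (log axis) of 15 collagen genes in the DN, GFP, mScarlet and DP libraries, with 1 point per library, symbols for library number and a line at the group mean; open symbols are libraries without a count, drawn at 0.01. Col1a1 lies between 5.67 and 23.4 CPM in mScarlet and between 221.2 and 1567 CPM in GFP, whereas Col18a1 lies between 844.3 and 2075 CPM in all groups.

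Basement membrane chains split into genes with a narrower range and genes that varied more. Col18a1 (Entrez 12822, chromosome 10 from 77052178 to 77166530), whose C-terminal fragment is endostatin, was at 2075, 1382, 1638 and 1310 CPM in DN, at 1749, 1232, 1561 and 1107 CPM in GFP, at 1332, 1448, 1293 and 1026 CPM in mScarlet and at 1098, 1334, 1347 and 844.3 CPM in DP. All 4 groups overlapped, and the highest library was 2.46 times the lowest. Col4a1 and Col4a2 encode the chains of the common type IV network. Col4a1 was at 214.4 to 273.8 CPM in DN, 164.5 to 241.7 CPM in mScarlet, 145.0 to 223.9 CPM in DP and 196.3 to 212.2 CPM in GFP 1 to 3, with 490.9 CPM in GFP 4. Col4a2 was at 83.9 to 98.9 CPM in DN, 63.5 to 89.2 CPM in mScarlet, 55.2 to 81.3 CPM in DP and 78.8 to 101.0 CPM in GFP 1 to 3, with 357.9 CPM in GFP 4. Without GFP 4 the highest library was 1.89 times the lowest for Col4a1 and 1.83 times for Col4a2.

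Col15a1 (Entrez 12819, chromosome 4 from 47207655 to 47313167), the relative of Col18a1 found between basement membranes and fibrils, was far scarcer. It was at 0.766, 0.281, 1.58 and 3.93 CPM in DN, at 4.63, 3.84, 6.54 and 29.1 CPM in GFP, at 0.0108, 0.220, 0.233 and 0.275 CPM in mScarlet and at 0.249, 0.176, 0.145 and 0.801 CPM in DP. Every GFP library lay above every mScarlet and DP library, with no overlap. Col4a6 was scarce, with 364 counts in all and 0, 1, 1 and 0 counts in the mScarlet libraries. Of the other type IV chains, Col4a5 was at 2.92 to 19.8 CPM, and Col4a3 and Col4a4 did not exceed 1.49 CPM.

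Among the chains of neither class, type VI, which forms beaded filaments around cells, was the most abundant. Col6a1 was at 535.7, 348.9, 329.1 and 352.0 CPM in DN, at 510.4, 439.8, 379.7 and 850.3 CPM in GFP, at 509.7, 293.6, 210.6 and 268.6 CPM in mScarlet and at 336.2, 302.1, 241.8 and 228.5 CPM in DP. Col6a2 was at 404.8, 225.5, 245.5 and 251.2 CPM in DN, at 374.0, 269.9, 332.2 and 781.2 CPM in GFP, at 418.4, 242.9, 143.0 and 156.4 CPM in mScarlet and at 221.7, 183.7, 160.9 and 152.8 CPM in DP. Neither fell below 143.0 CPM in any library, and in both every DP library lay below every GFP library. For Col6a2 every DP library also lay below every DN library. Col16a1, a chain that sits on fibril surfaces, was at 11.8, 21.3, 28.5 and 25.1 CPM in DN, at 17.6, 25.2, 36.3 and 104.6 CPM in GFP, at 8.02, 10.2, 12.7 and 9.97 CPM in mScarlet and at 11.7, 6.43, 13.2 and 9.40 CPM in DP. Col14a1, also bound to fibrils, was at 0.303, 0.162, 0.664 and 11.2 CPM in DN, at 14.3, 22.8, 4.15 and 100.3 CPM in GFP, at 0.129, 1.63, 0.499 and 0.220 CPM in mScarlet and at 2.75, 1.54, 1.54 and 1.41 CPM in DP. Its GFP libraries lay above all mScarlet and DP libraries, while DN 4 stood with them rather than with DN 1 to 3. Col7a1, the anchoring fibril chain, was at 1.91 to 23.0 CPM with overlap of all groups.

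Cells with mScarlet had lower levels than cells without it of 10 of the 36 tested members, and none was called higher. The comparison set the mean of mScarlet and DP against the mean of DN and GFP, in edgeR's quasi-likelihood test over 15963 genes with Benjamini-Hochberg adjustment, called at an adjusted p under 0.05. Over all tested genes 5.21% were called lower. This test did not use the library numbers as pairs, and a fit with the number as a block kept 7 of the 10 calls. Col3a1 was 18.2-fold lower (log2 fold change -4.19, SE 0.81, adjusted p = 0.00738), Col15a1 16.8-fold (-4.07, SE 0.72, adjusted p = 0.00321), Col1a2 13.4-fold (-3.74, SE 0.80, adjusted p = 0.0125) and Col1a1 12-fold (-3.58, SE 0.68, adjusted p = 0.00714). Col5a2 was 13.1-fold lower (adjusted p = 0.0204), Col5a3 10.1-fold (adjusted p = 0.0291), Col14a1 9.88-fold (adjusted p = 0.0443), Col5a1 5.51-fold (adjusted p = 0.015) and Col16a1 3.09-fold (adjusted p = 0.00607). Col4a6 was also called (log2 fold change -4.30, SE 1.242, adjusted p = 0.0424), on few counts. By class the called members were 6 of 9 fibrillar genes, 2 of 8 basement membrane genes and 2 of 19 others. The median log2 fold change was -3.33 in the fibrillar class, -0.40 in the basement membrane class and -1.14 in the others, against -0.02 over all tested genes. Without GFP 4, with 10 fibrillar, 8 basement membrane and 20 other members tested, these medians were -1.93, -0.26 and -1.01, against -0.01 over all genes. At an unadjusted p under 0.05 were 58.3% of the members and 24% of all tested genes.

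The abundant basement membrane and type VI chains were not called by the test without a block, nor was the fibrillar Col27a1. Col18a1 had a log2 fold change of -0.31 (SE 0.14, adjusted p = 0.174), Col4a1 of -0.48 (SE 0.18, adjusted p = 0.102), Col4a2 of -0.66 (SE 0.26, adjusted p = 0.131), Col6a1 of -0.63 (SE 0.20, adjusted p = 0.0587) and Col6a2 of -0.76 (SE 0.25, adjusted p = 0.0716). Col27a1 had 0.13 (SE 0.18, adjusted p = 0.718). Missing the threshold does not show equal levels, and 5 of these 6 values were negative. With the library number as a block Col18a1 (adjusted p = 0.0472), Col6a1 (adjusted p = 0.0149) and Col6a2 (adjusted p = 0.0355) were called lower, and so were Col6a3 and Col8a1. DESeq2 called Col4a1 (adjusted p = 0.0491), Col6a1 (adjusted p = 0.0143) and Col6a2 (adjusted p = 0.0159).

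Col1a1, Col1a2, Col3a1, Col15a1 and Col16a1 stayed called in all 24 alternative analyses of this comparison, with log2 fold changes for Col1a1 from -3.88 to -2.45. Without GFP 4 alone the fold differences were 9.94 for Col3a1, 11.3 for Col15a1, 9.35 for Col1a2, 8.05 for Col1a1, 2.80 for Col5a1, 9.12 for Col5a2, 5.07 for Col5a3 and 6.12 for Col14a1. In that fit 7 members were called, against 7.17% of all tested genes called either way, which was 8.73% in the main fit. Without DN 4 and GFP 4 together 6 members were called, against 3.47% of all tested genes lower, these 5 and Col5a1, and Col1a1 had a log2 fold change of -2.45 (adjusted p = 0.0134). Without DP 1 it was 6 as well, against 5.55% of all tested genes called either way. With the block 12 were called, against 7.73% of all tested genes lower, but Col5a3 (adjusted p = 0.0502), Col4a6 (adjusted p = 0.203) and Col14a1 (adjusted p = 0.155) were not. The call of Col4a6 was also lost without DN 1, DN 4, GFP 1, GFP 4 or any 1 of the mScarlet or DP libraries (adjusted p = 0.0556 to 0.118). That of Col14a1 was lost without DN 4, GFP 1, GFP 2, GFP 4, mScarlet 1, mScarlet 3, mScarlet 4 or any 1 of the DP libraries (adjusted p = 0.052 to 0.124), and that of Col5a3 without DN 1, DN 4, GFP 4, mScarlet 2, mScarlet 3, DP 1, DP 2 or DP 3 (adjusted p up to 0.0675). Col5a2 was lost without DP 1 (adjusted p = 0.0501), and without DN 4 and GFP 4 together (adjusted p = 0.061).

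**Figure D3:**
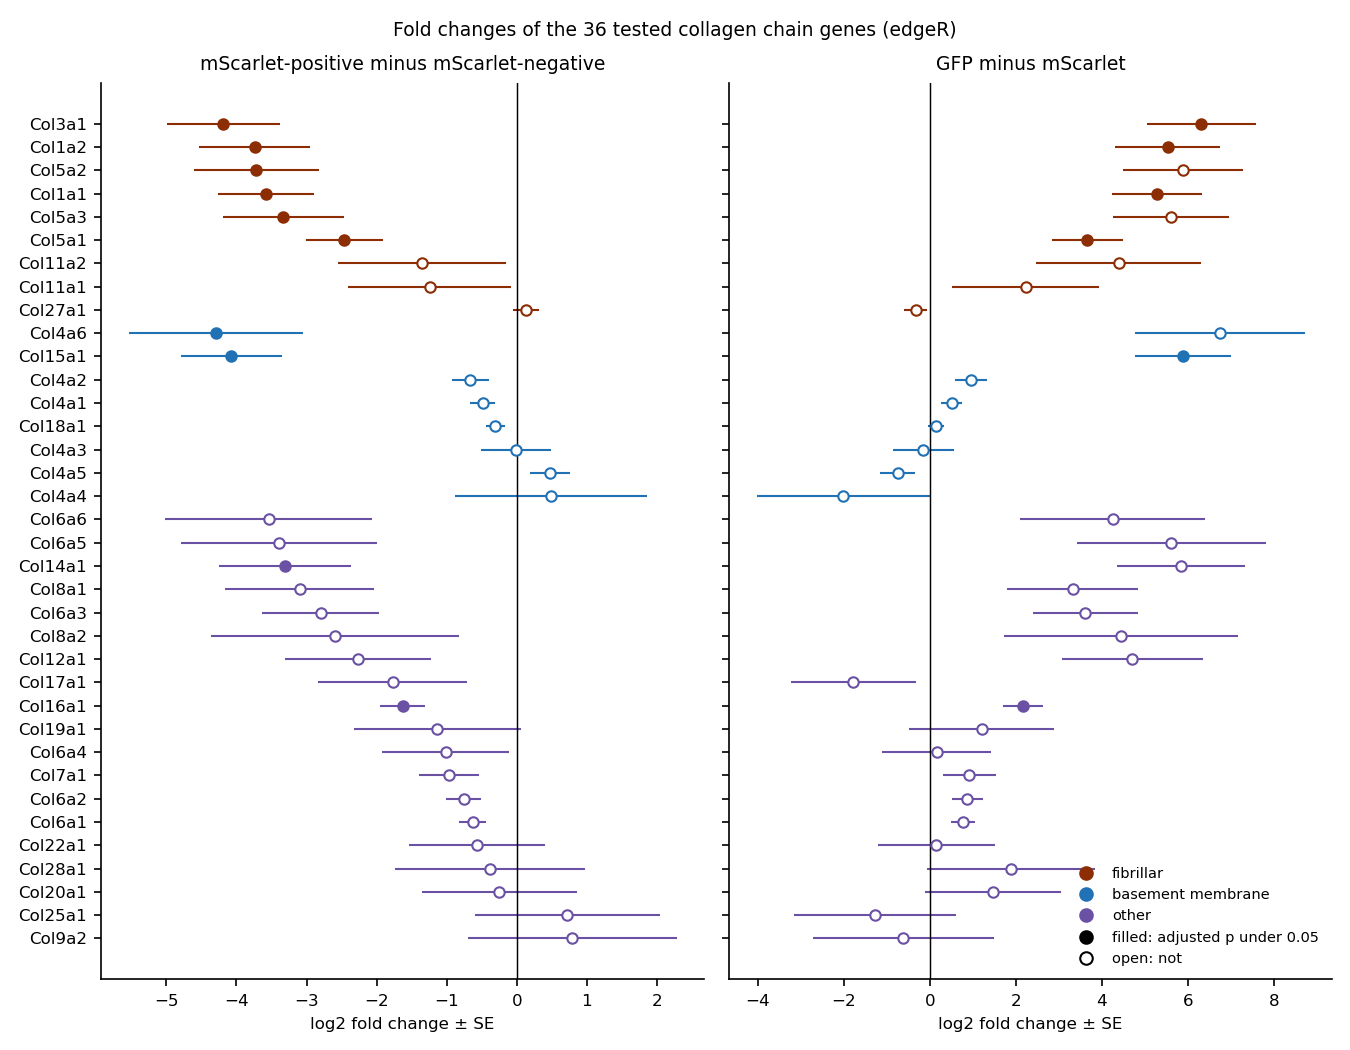
Log2 fold changes with SE (horizontal axes) of the 36 tested collagen genes, grouped by class, for mScarlet-positive minus mScarlet-negative cells (left) and GFP minus mScarlet (right); filled points passed the adjusted threshold. Filled fibrillar points lie from -4.19 to -2.46 on the left, while Col18a1 lies at -0.31.

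Fibroblast markers moved with the fibrillar genes. All 16 fibroblast markers that are not collagens had a negative log2 fold change in mScarlet-positive against mScarlet-negative cells, and 7 were called (Dcn, Fbln1, Fbln2, Mmp2, Pdgfrb, Pi16 and Serpinf1). GFP 4 was the highest library for all 7, among them Dcn at 1039 CPM and Pi16 at 790.3 CPM. The next highest values of these, in DN 4, were 120.9 and 72.2 CPM. Marker calls without GFP 4 are not given here. The sum of the 16 was 1196 to 6490 CPM for GFP, 1483 to 2227 for DN, 309.7 to 1072 for DP and 282.2 to 1030 for mScarlet. Fbln2 made up much of it, at 1028 to 2186 CPM without mScarlet and 257.3 to 990.3 CPM with it. The other 15, summed without Fbln2 after its values were seen, came to 149.1 to 4304 CPM for GFP, 37.2 to 473.4 for DN, 29.0 to 89.2 for DP and 14.8 to 39.7 for mScarlet. Decorin (Dcn), a small proteoglycan of fibroblasts, had a count in every library, at 8.52 to 1039 CPM for GFP, 1.20 to 120.9 for DN, 1.65 to 15.5 for DP and 0.117 to 3.38 for mScarlet. Lum had no count in DN 2, mScarlet 2, mScarlet 3 and DP 3, Pdgfra none in mScarlet 4 and DP 1, and Pdgfrb none in mScarlet 2. The fibrillar sum was 2.10 to 5.33 times the sum of the 15 markers for GFP and 2.95 to 5.60 times for DN. It was 2.04 to 4.73 times for DP and 2.33 to 4.86 times for mScarlet, so this ratio overlapped between all groups. Its medians were 4.81 for GFP, 4.37 for DN, 3.03 for DP and 2.70 for mScarlet, and the difference was not tested. With Fbln2 kept in the marker sum, the ratio overlapped between all groups except GFP and DP. The lowest GFP ratio was then in GFP 3, at 667.4 CPM of fibrillar genes to 1614 CPM of the 16 markers. The highest DP ratio was in DP 1, at 123.5 to 309.7 CPM. The overlap of mScarlet with GFP came from mScarlet 1 alone, at 120.6 to 282.2 CPM. Of other cell types, 3 of 5 mesothelial markers and 2 of 9 pericyte and smooth muscle markers were called lower with mScarlet. All 7 acinar markers were negative too, with a median log2 fold change of -3.36, and all 7 had an unadjusted p under 0.05 though none was called. All 11 endothelial and all 10 macrophage markers were negative, with medians of -1.10 and -1.11, and none was called. The 4 Schwann cell markers had a median of 0.51 and no call. Of 10 epithelial tumour markers 7 were positive and 3 (Epcam, Cldn4 and Cldn7) were negative, with a median of 0.30. These 3 were at 29.0, 37.05 and 44.5 CPM in GFP 4 and at most 0.474, 4.48 and 1.41 CPM elsewhere. Of the 10, 2 (Cdh1 and Muc1) were called higher, against 3.52% of all tested genes, and none lower. For the lower counts in these lists the share over all tested genes is the 5.21% above. Single gates differed from these pooled values. The acinar median was 0.16 in mScarlet against DN, with 4 of 7 markers positive. It was -2.29 in DP against DN and -6.50 in DP against GFP. The macrophage median was -0.90 in mScarlet against DN, with 10 of 10 negative, and 1.63 in DP against DN, with 9 of 10 positive. No acinar or macrophage marker was called in these comparisons. The part of these cells in the collagen results was not tested.

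**Figure D4:**
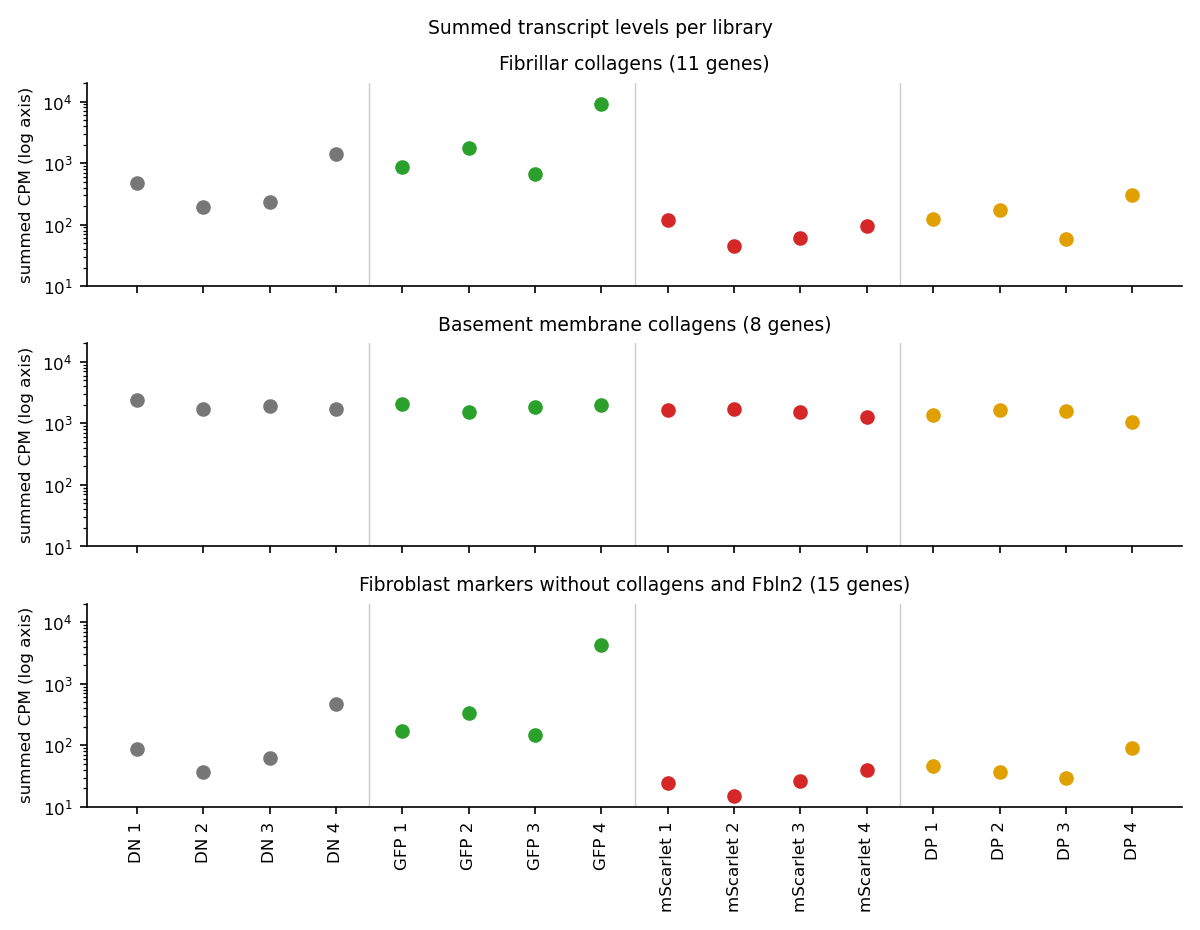
Summed CPM per library (log axes) of the fibrillar collagens, the basement membrane collagens and 15 fibroblast markers. The fibrillar and marker sums are highest in GFP 4, at 9037 and 4304 CPM, and low in mScarlet, whereas the basement membrane sum stays between 1053 and 2449 CPM.

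GFP against mScarlet compared the cells with only 1 reporter. Of the 36 tested members 6 were called higher in GFP, against 1.06% of all tested genes. They were Col3a1 (log2 fold change 6.32, SE 1.26, adjusted p = 0.0354), Col15a1 (5.89, SE 1.11, adjusted p = 0.027), Col1a2 (5.53, SE 1.23, adjusted p = 0.0424), Col1a1 (5.28, SE 1.05, adjusted p = 0.0342), Col5a1 (3.66, SE 0.82, adjusted p = 0.0424) and Col16a1 (2.17, SE 0.46, adjusted p = 0.0354). Col5a2 (5.89, adjusted p = 0.051), Col5a3 (5.60, adjusted p = 0.0552) and Col14a1 (5.84, adjusted p = 0.0617) fell just short. In 11 members every GFP library lay above every mScarlet library, against 5.22% of all tested genes. These were those 9, Col6a3 and Col12a1. At an unadjusted p under 0.05 were 50% of the members and 19.2% of all tested genes. The median log2 fold change was 5.28 in the fibrillar class, 0.33 in the basement membrane class and 1.47 in the others, against 0.01 over all tested genes, and without GFP 4 it was 3.87, 0.10 and 0.85. The count rested on single libraries. Without GFP 4 only Col5a1 was called (log2 fold change 1.71, adjusted p = 0.0419), and Col1a1 (4.14, adjusted p = 0.0609), Col3a1 (4.57, adjusted p = 0.0604), Col15a1 (4.74, adjusted p = 0.0583), Col1a2 (4.50, adjusted p = 0.081) and Col16a1 (1.36, adjusted p = 0.0639) missed. The count was 0 without mScarlet 1, 2 or 3 (0.0361%, 0.114% and 0.109% of all tested genes called either way). It was 3 without mScarlet 4 (1.94%) or DP 1 (0.759%) and 2 without DP 2 (0.641%). This share was 0.43% without GFP 4 and 1.53% in the main fit.

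The mScarlet gate was also set against DN, which lacks both reporters. No member was called in edgeR's test, with 9 (25%) at an unadjusted p under 0.05 against 14.2% of all tested genes, while 0.695% of all tested genes were called lower. Col1a1 had a log2 fold change of -3.33 (SE 0.96, adjusted p = 0.117), Col3a1 of -3.42 (SE 1.10, adjusted p = 0.167) and Col15a1 of -3.15 (SE 0.99, adjusted p = 0.142). In 6 members every mScarlet library lay below every DN library, against 6.06% of all tested genes, and these were Col1a1, Col1a2, Col3a1, Col5a1, Col15a1 and Col17a1. The library numbers paired these samples by their correlations, and with the number as a block Col1a1 (adjusted p = 0.0129), Col3a1 (adjusted p = 0.031) and Col15a1 (adjusted p = 0.0414) were called, against 2.9% of all tested genes lower in that fit. DESeq2 called 5 members, against 3.24%, and without GFP 4 edgeR called Col5a1 (adjusted p = 0.0369).

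DP against GFP, which asks the same of cells that all carried GFP, called Col15a1 (log2 fold change -5.00, SE 1.06) and Col16a1 (-2.17, SE 0.46) lower in DP, both at adjusted p = 0.0471, against 0.363% of all tested genes. Col1a1 (-3.83, adjusted p = 0.0834) and Col3a1 (-4.95, adjusted p = 0.0748) were not called. Without GFP 4 the log2 fold changes were -3.84 for Col15a1, -1.36 for Col16a1, -2.67 for Col1a1 and -3.19 for Col3a1. In 11 members every DP library lay below every GFP library, against 4.58% of all tested genes. With the library number as a block 9 members were called, against 2.96% of all tested genes lower in that fit, the 2 above with Col1a1, Col1a2, Col3a1, Col5a1, Col6a1, Col6a2 and Col6a3. Both calls were lost without DN 2, DN 3, DN 4, GFP 1, GFP 4, mScarlet 2, mScarlet 3, mScarlet 4, DP 1, DP 2 or DP 3, and that of Col16a1 also without mScarlet 1 or DP 4. This comparison shares the GFP libraries with the one before, so they are not independent. It shares no library with mScarlet against DN. But same-numbered libraries correlated across groups and the same fit gave both comparisons, so these are not independent either.

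In the remaining comparisons no member was called by edgeR. DP against DN called no member by edgeR (4 at an unadjusted p under 0.05, which is 11.1%, against 15.8% of all tested genes), while 1.71% of all tested genes were called lower. With the library number as a block it called Col17a1 (adjusted p = 0.0386, with 3.9% of all tested genes lower), and without GFP 4 Col5a1 (adjusted p = 0.0379). GFP against DN called none (9 at an unadjusted p under 0.05, which is 25% against 9.72% of all tested genes), with 0% of all tested genes called. DESeq2 called 1 member there, against 1.59% of all tested genes in that fit, and the block 0, against 0.0689%. DP against mScarlet called none (0 at an unadjusted p under 0.05 against 2.88% of all tested genes), again with 0% of all genes called by edgeR. DESeq2 called 0 members there, against 0.318% of all tested genes. GFP-positive against GFP-negative cells gave 0 edgeR calls (12 at an unadjusted p under 0.05, which is 33.3% against 9.72%) with 0% of all genes. DESeq2 called 1 member there, against 2.05% of all tested genes in that fit. The interaction tests whether the effect of one reporter depended on the other. It also gave 0 edgeR calls with 0% of all genes (1 at an unadjusted p under 0.05, which is 2.78% against 3.29%). DESeq2 called 0 members in it, against 0.258%. In GFP against DN, where no fibrillar gene was called, 8 of 9 had a positive log2 fold change, as did 8347 of 15963 tested genes. The fibrillar median was 2.30, and 0.98 without GFP 4 over 10 genes, against 0.02 and -0.01 over all tested genes.

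The make-up of the collagen pool varied between libraries. Fibrillar genes held 20.2% to 69.5% of collagen CPM for GFP (up to 43.5% without GFP 4), 7.49% to 37.1% for DN, 2.81% to 17.1% for DP and 1.89% to 5.22% for mScarlet. Basement membrane genes held 15.3% to 56.6% for GFP, 45.1% to 69.8% for DN, 59.6% to 77.0% for DP and 61.2% to 78.2% for mScarlet. All collagen genes together took 0.58% ± 0.424 of counts for GFP (0.368% ± 0.0468 without GFP 4, SD, n = 3), 0.333% ± 0.068 for DN, 0.221% ± 0.039 for mScarlet and 0.209% ± 0.021 for DP (SD, n = 4).

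Ratios between chains of 1 protein were narrow for types IV and VI alpha-1 to alpha-2 and wider for type I. They were widest for Col6a3 and Col5a3, the last through mScarlet 4. Per length, Col1a1 was 0.741 to 4.88 times Col1a2, with a median of 1.22, although both ranged over orders of magnitude, and the highest ratio was in DP 3, where both were scarce. The triple helix of type I collagen holds Col1a1 and Col1a2 chains at 2 to 1. Col4a1 was 1.34 to 2.73 times Col4a2 (median 2.51), lowest in GFP 4. These genes start head to head on opposite strands and share 22 annotated exonic bases. Col6a1 was 1.05 to 1.66 times Col6a2 (median 1.38). The third chain of the common type VI filament, Col6a3, was far lower. It was at 3.93 to 58.1 CPM for GFP, 2.34 to 8.71 for DN, 0.387 to 2.58 for DP and 0.0443 to 3.18 for mScarlet, and Col6a1 was 36.1 times Col6a3 in GFP 4 and 11710 times in mScarlet 3, with a median of 231.6. Col5a1 was 2.28 to 1905 times Col5a3, with a median of 5.93, and the highest ratio was in mScarlet 4, where Col5a3 was at 0.011 CPM (1 count). The next highest ratio was 16.2, in mScarlet 3.

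**Figure D5:**
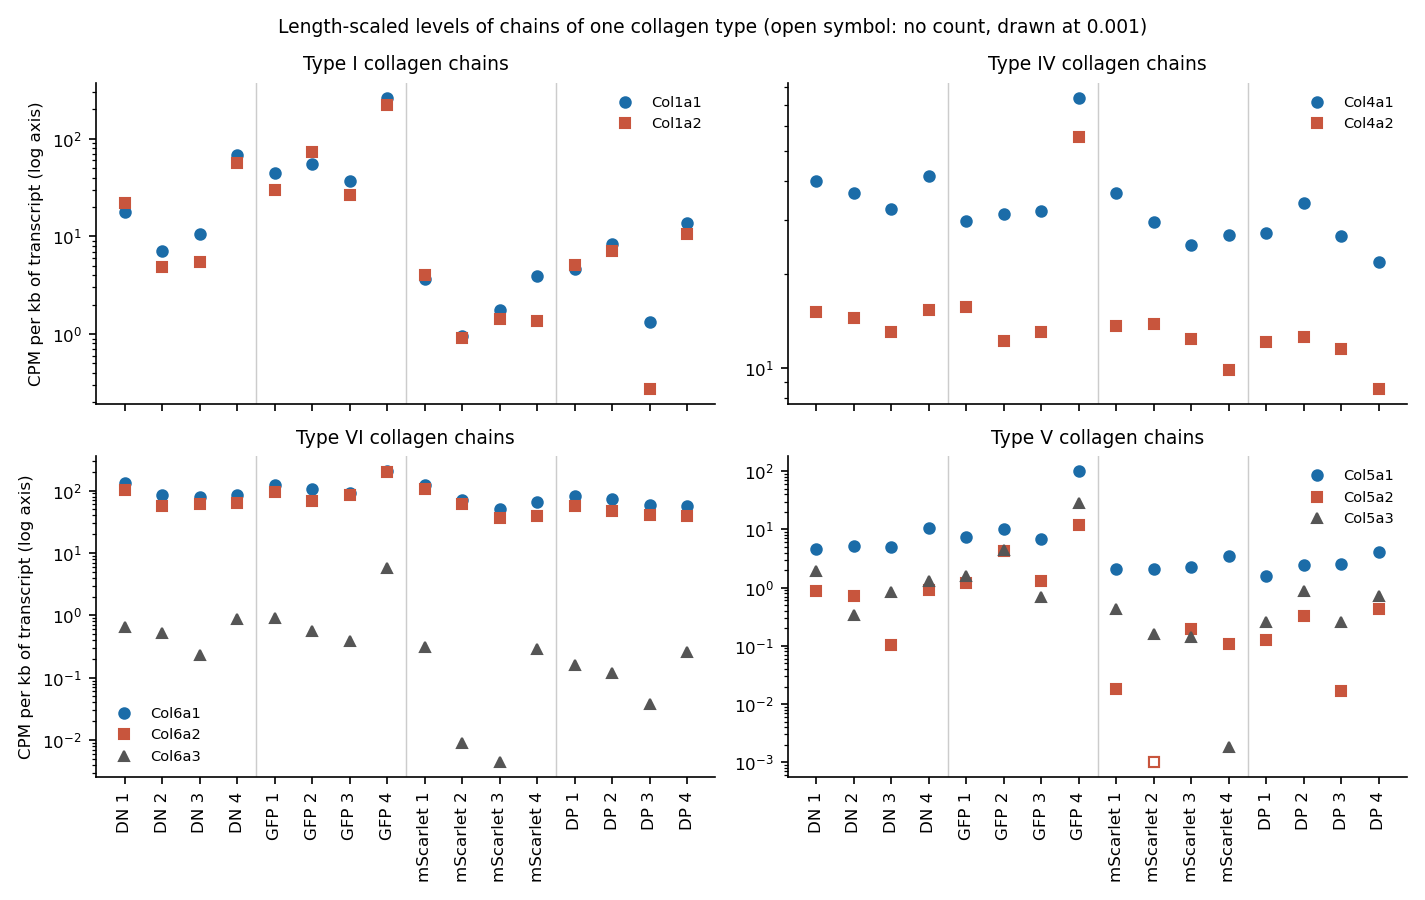
CPM per kb of transcript (log axes) of chains of type I, IV, V and VI collagen in each library; the open symbol is a library without a count, drawn at 0.001. Col1a1 and Col1a2 are highest in GFP 4 and low in the mScarlet libraries, while Col6a3 lies far below Col6a1 and Col6a2, most of all in mScarlet 3, where the ratio to Col6a1 is 11710.

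Col17a1, a transmembrane chain of the hemidesmosome that anchors epithelial cells, had a pattern of its own and was singled out after its values were seen. It had 159, 132, 134 and 113 counts in DN 1 to 4, 1, 1, 1 and 3 in GFP, 1, 1, 21 and 0 in mScarlet and 0, 3, 8 and 0 in DP, that is 1.39 ± 0.172 CPM in DN (SD, n = 4) and at most 0.233 CPM in any other library. DN did not overlap the other groups. The log2 fold change was -6.18 in GFP against DN (SE 1.73, edgeR adjusted p = 0.367), -4.40 in mScarlet against DN (SE 1.58, adjusted p = 0.204) and -5.32 in DP against DN (SE 1.66, adjusted p = 0.115). DESeq2 called all 3 (adjusted p = 0.0048, 0.0311 and 0.00489), and the block called DP against DN as above.

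Some enzymes that modify and cross-link collagen were lower in mScarlet-positive cells. Of 20 tested genes of chain synthesis and folding, 5 were called lower there and none higher. Over all tested genes 5.21% were called lower and 3.52% higher, which is the background of this list and the next 4. They were P4ha1 and P4ha2, the catalytic subunits of prolyl 4-hydroxylase, the collagen chaperone Serpinh1, Crtap of the prolyl 3-hydroxylase complex and the lysyl hydroxylase Plod3. P4ha2 was also lower in mScarlet than DN (60.2 ± 22.4 against 206.0 ± 42.1 CPM, SD, n = 4), with a log2 fold change of -1.78 (SE 0.37, edgeR adjusted p = 0.0325), and in DP than DN (67.5 ± 41.2 CPM; log2 fold change -1.61, SE 0.37, adjusted p = 0.0329). Its libraries without mScarlet were at 119.9 to 279.7 CPM and those with it at 32.4 to 127.2 CPM.

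Of 11 tested genes of processing and crosslinking, 7 were called lower and 1 higher in mScarlet-positive cells. Adamts2, which removes the N-terminal propeptide, was at 1.23 ± 0.872 CPM with mScarlet and 79.3 ± 183.5 without (SD, n = 8; log2 fold change -5.24, SE 1.20, adjusted p = 0.0174). Loxl1, a lysyl oxidase that cross-links matrix, was at 1.42 ± 1.55 against 66.8 ± 158.8 CPM (-4.93, SE 1.06, adjusted p = 0.0128). Loxl2 of the same family was lower in DP than DN (10.2 ± 6.94 against 50.5 ± 18.6 CPM; -2.31, SE 0.54, adjusted p = 0.0372). Loxl4 went the other way, at 39.5 ± 15.0 against 19.7 ± 6.08 CPM (1.00, SE 0.21, adjusted p = 0.00937), and was lower in GFP than mScarlet (-1.53, adjusted p = 0.0278). Bmp1, which removes the C-terminal propeptide, was lower in DP than GFP (55.1 ± 12.8 against 223.1 ± 188.7 CPM; -2.02, SE 0.41, adjusted p = 0.0414). Adamts2, Loxl1 and Bmp1 were highest in GFP 4, at 531.7, 459.1 and 505.8 CPM. Without GFP 4 the mean without mScarlet was 14.6 ± 16.9 CPM for Adamts2 (log2 fold change -3.56) and 10.7 ± 9.89 CPM for Loxl1 (-3.24, SD, n = 7), both still called. The GFP mean of Bmp1 was then 128.9 ± 12.4 CPM (SD, n = 3), and its call in DP against GFP was lost (-1.21, adjusted p = 0.0615).

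Of 17 tested partners of the basement membrane, 4 were called lower (Lama4, Lamb1, Nid1 and Nid2) and Lamb3, a chain of the laminin of epithelial basement membranes, was higher in mScarlet-positive cells (488.3 ± 108.7 against 320.3 ± 106.6 CPM; log2 fold change 0.62, SE 0.19, adjusted p = 0.0491), a call lost without GFP 4 (adjusted p = 0.0838). Lamb1 was lower in mScarlet than DN (39.0 ± 9.25 against 66.8 ± 6.89 CPM; -0.78, SE 0.17, adjusted p = 0.0426). Of 9 receptors 1 was called lower, Mrc2, which takes up collagen fragments (log2 fold change -4.93, SE 1.00, adjusted p = 0.00846). Of 6 collagenases and uptake genes 1 was called lower, the gelatinase Mmp2 (-3.62, SE 0.86, adjusted p = 0.0204), which is also a fibroblast marker above. In GFP against mScarlet, 1 of 20 genes of synthesis, 3 of 11 of processing, 1 of 9 receptors, 1 of 17 basement membrane partners and 1 of 6 collagenases and uptake genes were called higher, and 1 of processing lower, against 1.06% of all tested genes higher and 0.47% lower. Of these, Mrc2 (log2 fold change 7.79, adjusted p = 0.0362), Loxl1 (7.75, adjusted p = 0.0409) and Mmp2 (6.30, adjusted p = 0.0409) were higher. Without GFP 4 these 3 had log2 fold changes of 6.31, 4.39 and 4.21 and lost their calls (adjusted p = 0.0609, 0.0609 and 0.0772), as did Loxl4 (adjusted p = 0.0609).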

How the data were processed

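Bulk RNA was measured in 16 libraries, made from full-length cDNA that was amplified by PCR, per the labels' protocols. The deposited values are raw counts, as whole numbers for each Entrez gene. The submitters' processing notes name STAR, DESeq2 1.24.0 and GRCm38 (mm10), without roles. The sources used here do not name the counter, the annotation or the use of strand, so overlapping genes (Col4a1 and Col4a2, and for example Col4a3 with an antisense transcript) cannot be told apart by strand.

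Of 24467 genes 24437 matched a RefSeq symbol (GRCm38.p6), and the other 30 held 0.723% to 1.93% of counts. Total counts were 80647185 to 104273669 per library. Counting floors (3 counts) and intervals cover counting error only, since reads carried no molecular identifiers. No 2 libraries of a group agreed within sampling noise (lowest chi-square per degree of freedom 97.96). The design speaks of 4 mice per group, the labels tie no library to a mouse, and p-values measure the spread between these libraries.

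The test was edgeR 4.0.16 (R 4.3.3), glmQLFit with robust estimation and glmQLFTest, on all 16 libraries with group as the term, filterByExpr and TMM, which left 15963 genes. CPM is the count over the TMM-scaled library size. Genes were called at a Benjamini-Hochberg adjusted p under 0.05 over all tested genes, in 9 comparisons. DESeq2 1.42.0 and limma 3.58.1 (voom) were alternatives, with others listed under the dependence on processing. The code was tested on simulated counts. CPM per kb used the GENCODE transcript with the longest coding sequence.

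The members and gene lists were chosen with earlier results of these data known. Values per library are given for Col1a1, Col3a1, Col15a1, the 3 members of each class with the highest mean CPM and the called members. Pathway genes were named where called, up to 3 per direction and comparison by fold change, at 10 CPM or more in the higher group, and the called members of short lists were named beside their counts after their values were seen.

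Deviations from the group means correlated over 0.1 in 23 of 24 same-numbered pairs (0.092 to 0.608), and 16 of 16 libraries correlated best with their own number. From these data the numbers were taken as pairs in all comparisons of groups except GFP against mScarlet, which holds the pair at 0.092. The main test has no term for the number, so its calls ignore the pairing. Only the fit with the number as a block, given beside it, uses the pairs.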

Additional observations from a re-analysis of the deposited data

Results flagged for a closer look

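Each group of 4 libraries was checked for a library whose distance from its nearest neighbour, over the group's range, exceeded Dixon's 95% critical value for 4 values. Of 60 groups (15 genes in 4 groups) 15 held such a library, and 7 of those were GFP 4. The rule's rate of about 1 in 20 is for normally distributed values. CPM are skewed, these genes varied together, and several were chosen by calls that used GFP 4, so that rate need not hold here. In GFP 4 these were Col1a1 at 1567 CPM, Col3a1 at 5156 CPM, Col15a1 at 29.1 CPM, Col4a1 at 490.9 CPM, Col4a2 at 357.9 CPM, Col5a1 at 847 CPM and Col5a3 at 175.3 CPM. Each was the highest value of its gene in the series. The same library had the highest fibroblast and acinar marker sums, and the part of those cells was not tested.

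The other 8 were spread over 6 libraries. In DN 1, Col6a1 (535.7 CPM) and Col6a2 (404.8 CPM) stood above the other DN libraries. In DN 4 Col5a1 (90.4 CPM) and Col14a1 (11.2 CPM) did. The rest were Col15a1 in DP 4 (0.801 CPM), Col14a1 in DP 1 (2.75 CPM), Col1a2 in mScarlet 1 (21.4 CPM) and Col5a1 in mScarlet 4 (28.7 CPM).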

How the results depend on the processing

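Of the values of single collagen genes under the alternatives, 717 stayed on the same side of the threshold, 136 lost the call, 51 gained one and 0 changed direction. Collagen genes called are given by setting, each with the share of all tested genes called either way. The main fit tested 36 collagen genes. A fit without an expression filter tested 44 and a stricter filter 23. Fits of only 8 libraries tested 25 to 32, and those leaving out 1 library 36 to 38. For GFP against mScarlet (6, 1.53%) it was 2 without an expression filter (0.632%), 11 with DESeq2 (10.3%) and 2 with limma voom (0.921%). A fit of only those 8 libraries gave 0 (0.014%), and leaving 1 library out gave 0 to 9 (0.0361% to 3.17%). For DP against GFP (2, 0.564%) it was 13 with DESeq2 (6.51%), 0 with limma voom (0.539%) and 0 with a fit that is not robust (0.445%). It was also 0 with only the 8 libraries (0.00692%) and 0 without DN 4 and GFP 4 (0.0122%). Leaving 1 library out gave 0 to 4 (0.00602% to 1.8%). For mScarlet-positive against mScarlet-negative (10, 8.73%) it was 6 without DN 4 and GFP 4 (5.6%). Leaving 1 library out gave 6 to 12 (5.19% to 9.93%). For mScarlet against DN (0, 1.18%) it was 5 with DESeq2 (5.34%), 1 with limma voom (1.38%) and 1 with only the 8 libraries (2.4%). Leaving 1 library out gave 0 to 1 (0.102% to 2.18%). For DP against DN (0, 2.32%) it was 1 with DESeq2 (6.74%), 1 with limma voom (2.41%) and 1 with only the 8 libraries (4.01%). Leaving 1 library out gave 0 to 1 (0.633% to 3.21%). DESeq2 called 1 member, Col17a1, in GFP against DN (1.59%) and in GFP-positive against GFP-negative cells (2.05%). Every other setting tried, among them other size factors and a stricter filter, gave counts within 1.5 times those reported. The non-robust fit and the one without DN 4 and GFP 4 were chosen after seeing the data. The cause of these shifts was not tested, beyond that the fit of 8 libraries and those leaving out a library have fewer samples.

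With the replicate block, calls were 10 in GFP against mScarlet, against 7.45% of all tested genes called either way. There 1 of 4 same-numbered pairs fell below 0.1, so the numbers were not taken as pairs. Col5a2 (block fit adjusted p = 0.0434) and Col14a1 (adjusted p = 0.04) were among the 10. Calls were 9 in DP against GFP (5.09%), 3 in mScarlet against DN (5.42%) and 1 in DP against DN (6.37%). They were 12 in mScarlet-positive against mScarlet-negative cells (14.4%) and 0 elsewhere. DESeq2 gave no adjusted p for Col5a1 in GFP against mScarlet or in mScarlet-positive against mScarlet-negative cells. The effect of depth was not tested, and scarce members such as Col4a6 and Col17a1 rest on few counts.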

Other observations

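Among the members left untested for low counts, Col23a1, a transmembrane chain, was at 6.14 CPM and Col9a3, a chain of cartilage fibrils, at 5.36 CPM in GFP 4. In the other 15 libraries Col23a1 did not exceed 0.549 CPM and Col9a3 did not exceed 0.293 CPM. Col8a2, of the short-chain collagens, was tested and was at 20.4 CPM in GFP 4, 6.13 CPM in DN 4 and 4.61 CPM in DP 4, and had no count in mScarlet 2, 3 and 4 and in DP 1, 2 and 3.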
